A study of Rattus norvegicus with 63 samples.

Results

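The GABA-B receptor was represented by 8 probe sets on the Rat Neurobiology U34 array, a short-oligonucleotide array on which each probe set gives 1 fluorescence signal for a transcript. They are the probe sets whose only gene symbol in the platform annotation is Gabbr1 or Gabbr2, of 1263 probe sets that are not controls. Gabbr1 had 5 of them (AB016160_at, AB016160_g_at, rc_AA926213_g_at, AB016161cds_i_at and AB016161cds_r_at) and Gabbr2 had 3 (AF058795_at, AF074482_s_at and AF109405_s_at). The first pair of Gabbr1 sets were designed on the same sequence record, as were the last pair, and each other set had a record of its own. Sets of 1 gene were read on the same RNA samples and are not replicates. Which forms of the transcript each set reads could not be looked up here. A suffix that marks probes shared between transcripts or made against design rules (_g, _s, _i or _r) was carried by 6 of the 8, all but AB016160_at and AF058795_at. No member was at the lower signal limit on any of the 63 arrays.

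The GABA-B receptor is the metabotropic receptor of GABA, the main inhibitory transmitter of the brain. It works as a pair of different subunits: Gabbr1 binds GABA and the agonist baclofen, and Gabbr2 carries Gabbr1 to the cell surface and activates the Gi/o proteins. Through these proteins it opens inwardly rectifying potassium channels, closes presynaptic calcium channels and lowers adenylyl cyclase activity, and baclofen has long been studied for its effects on cocaine taking in rats.

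The series profiled 6 brain regions of rats that differed in how long they could take cocaine by the vein each day: 0 h in cocaine-naive controls, called no access here, 1 h in short access and 6 h in long access, at 0.25 mg per injection. Each access group held 8 rats per the design text, and there were 4 arrays per access group for the amygdala, the nucleus accumbens and the lateral hypothalamus, and 3 for each of the medial prefrontal cortex, the septum and the ventral tegmental area. Strain, sex, age and whether RNA was pooled across rats are not given in the sources used here, so p-values measure the spread between arrays, which may be technical. Signals are microarray intensities, given here after rescaling every array to a common trimmed mean of 500, and the number of arrays limits the precision. A lower signal in a dissected region cannot tell fewer cells of a type from less RNA per cell.

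Some arrays stood apart before any comparison. The log2 ratio of the 3' to the 5' actin control, which rises when RNA is degraded or copied incompletely, had a median of 0.19 over the 63 arrays but was 1.93, 1.58 and 1.35 on replicate 3 of the no, short and long access groups of the medial prefrontal cortex. It exceeded 0.5 on 4 more arrays: medial prefrontal cortex long access replicate 2, amygdala no access replicate 3, and amygdala short access replicates 1 and 4. In the lateral hypothalamus the antisense control probe sets, which should find no target, had a mean log2 signal of 8.13 ± 0.21 (SD, n = 4) on the no access arrays, against 6.84 ± 0.17 with short and 6.75 ± 0.15 with long access. The bacterial spike-in controls were higher there as well, at 12.05 ± 0.14 against 11.61 ± 0.27 and 11.39 ± 0.12. In each of these 4 control comparisons the groups did not overlap (exact two-sided permutation test, p = 0.0286, the smallest that 4 arrays against 4 allow; adjusted p = 0.30 over 72 such tests). Markers were listed for 4 of the regions with earlier results of these data known, and each was read on its probe set of smallest p. Every one tested was higher in its own region than in the other 5. These were 6 of 6 accumbens markers, 4 of 4 prefrontal, 4 of 4 ventral tegmental and 3 of 3 lateral hypothalamic ones. Of all probe sets tested, 279, 226, 288 and 252 of 858 passed as higher in these regions, in that order. Chosen in this way, the markers are no independent test of the region labels. No such markers were listed for the amygdala and the septum.

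On the high-ratio arrays of the medial prefrontal cortex the members given next were the lowest or the highest of that region, depending on the probe set. This is not stated of the other members. Among those, AB016161cds_i_at and AB016161cds_r_at had mean log2 signals of 7.21 and 7.21 with these arrays and 7.35 and 7.10 without. Gabbr1 AB016160_g_at had signals of 160, 137 and 190 on the 3 arrays with an actin ratio over 1, and between 710 and 1598 on the other 6 arrays of that region. AB016160_at had 612, 673 and 585 on the same arrays, and from 1654 to 3996 on the others. Neither set overlapped between the 3 arrays and the other 6. Of the Gabbr2 sets, AF074482_s_at gave 138, 118 and 142 against 241 to 504, and AF109405_s_at gave 208, 168 and 152 against 237 to 587. AF058795_at went the other way, at 3893, 4424 and 3548 on the high-ratio arrays against 2037 to 3228. In the amygdala the same Gabbr1 sets were low on no access replicate 3 and short access replicate 4 (978 and 1078 for AB016160_at, 399 and 421 for AB016160_g_at), but not on short access replicate 1, whose actin ratio was as high (4194 and 2275). The part of the actin ratio in these signals was not tested, and the medial prefrontal results below are given with and without the 3 arrays over 1.

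**Figure D1:**
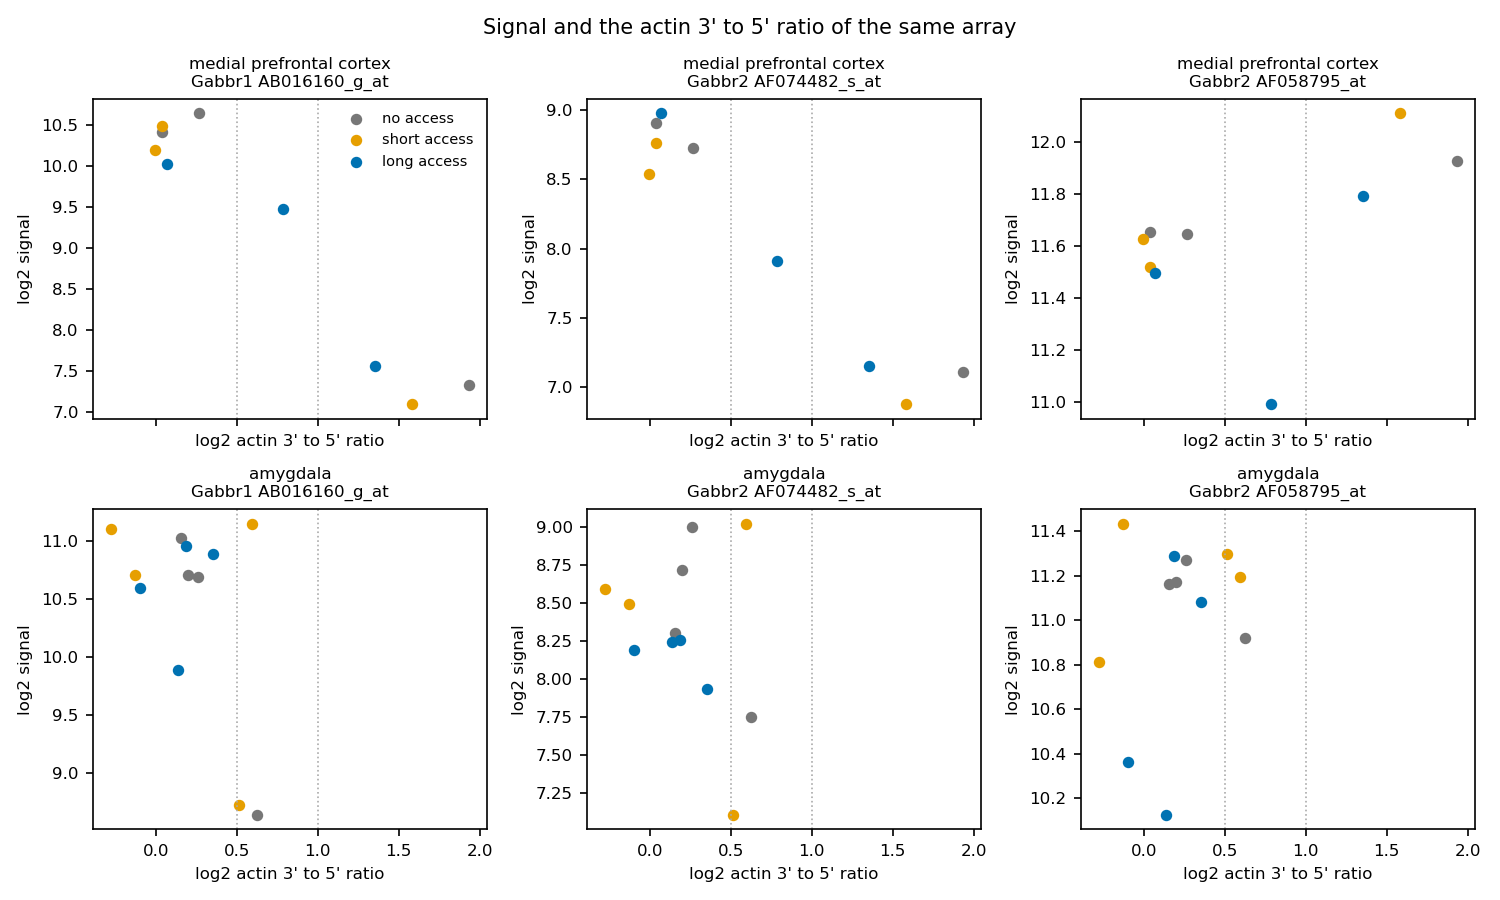
Log2 signal of Gabbr1 AB016160_g_at, Gabbr2 AF074482_s_at and Gabbr2 AF058795_at (vertical axes) against the log2 ratio of the 3' to the 5' actin control of the same array (horizontal axis), for the 9 arrays of the medial prefrontal cortex (top) and the 12 of the amygdala (bottom), coloured by access group, with dotted lines at 0.5 and 1. In the medial prefrontal cortex the 3 arrays past 1 are the lowest for the first and second probe sets and the highest for the third.

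Across regions Gabbr1, the ligand-binding subunit, and Gabbr2, the signalling subunit, ran in opposite directions at the ends of the scale. In the nucleus accumbens 3 of 5 Gabbr1 sets were higher and 3 of 3 Gabbr2 sets were lower than their average over the other 5 regions, where 65.9% of all probe sets differed. In the medial prefrontal cortex 4 of 5 Gabbr1 sets were lower and 3 of 3 Gabbr2 sets were higher, against 67.2% of all probe sets. In the lateral hypothalamus 3 Gabbr1 sets and 1 Gabbr2 set were higher, or 4 of 8 against 55.5%. All 4 of those calls were lost with only the no access arrays (adjusted p from 0.0708 to 0.479). In the fit of all arrays AB016160_g_at was also lost there without no access replicate 2, short access replicate 1 or long access replicate 1 or 2 (adjusted p up to 0.0541), and rc_AA926213_g_at without no access replicate 4 or long access replicate 3 (up to 0.0616). In the amygdala the 3 Gabbr2 sets were higher and no Gabbr1 set passed (3 of 8 against 50.1%), and in the ventral tegmental area the 3 Gabbr2 sets were lower (3 of 8 against 68.5%). The septum differed on 1 of 8 sets, where 50.9% of all probe sets did. Over 6 regions and 8 probe sets, 24 of 48 such comparisons passed an adjusted p of 0.05 (limma over all arrays, Benjamini-Hochberg adjustment), against 59.7% of all probe sets tested, a share no higher than that background. The count was 14 of 18 for Gabbr2 and 10 of 30 for Gabbr1. The count over both genes was 25 of 48 without the 3 high-ratio arrays. There AB016160_at was also lower in the amygdala (-0.42 ± 0.13, limma adjusted p = 0.0051) and rc_AA926213_g_at in the ventral tegmental area (-0.21 ± 0.10, adjusted p = 0.0497). In that setting the medial prefrontal call of AB016160_at was lost (-0.29, limma adjusted p = 0.136).

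**Figure D2:**
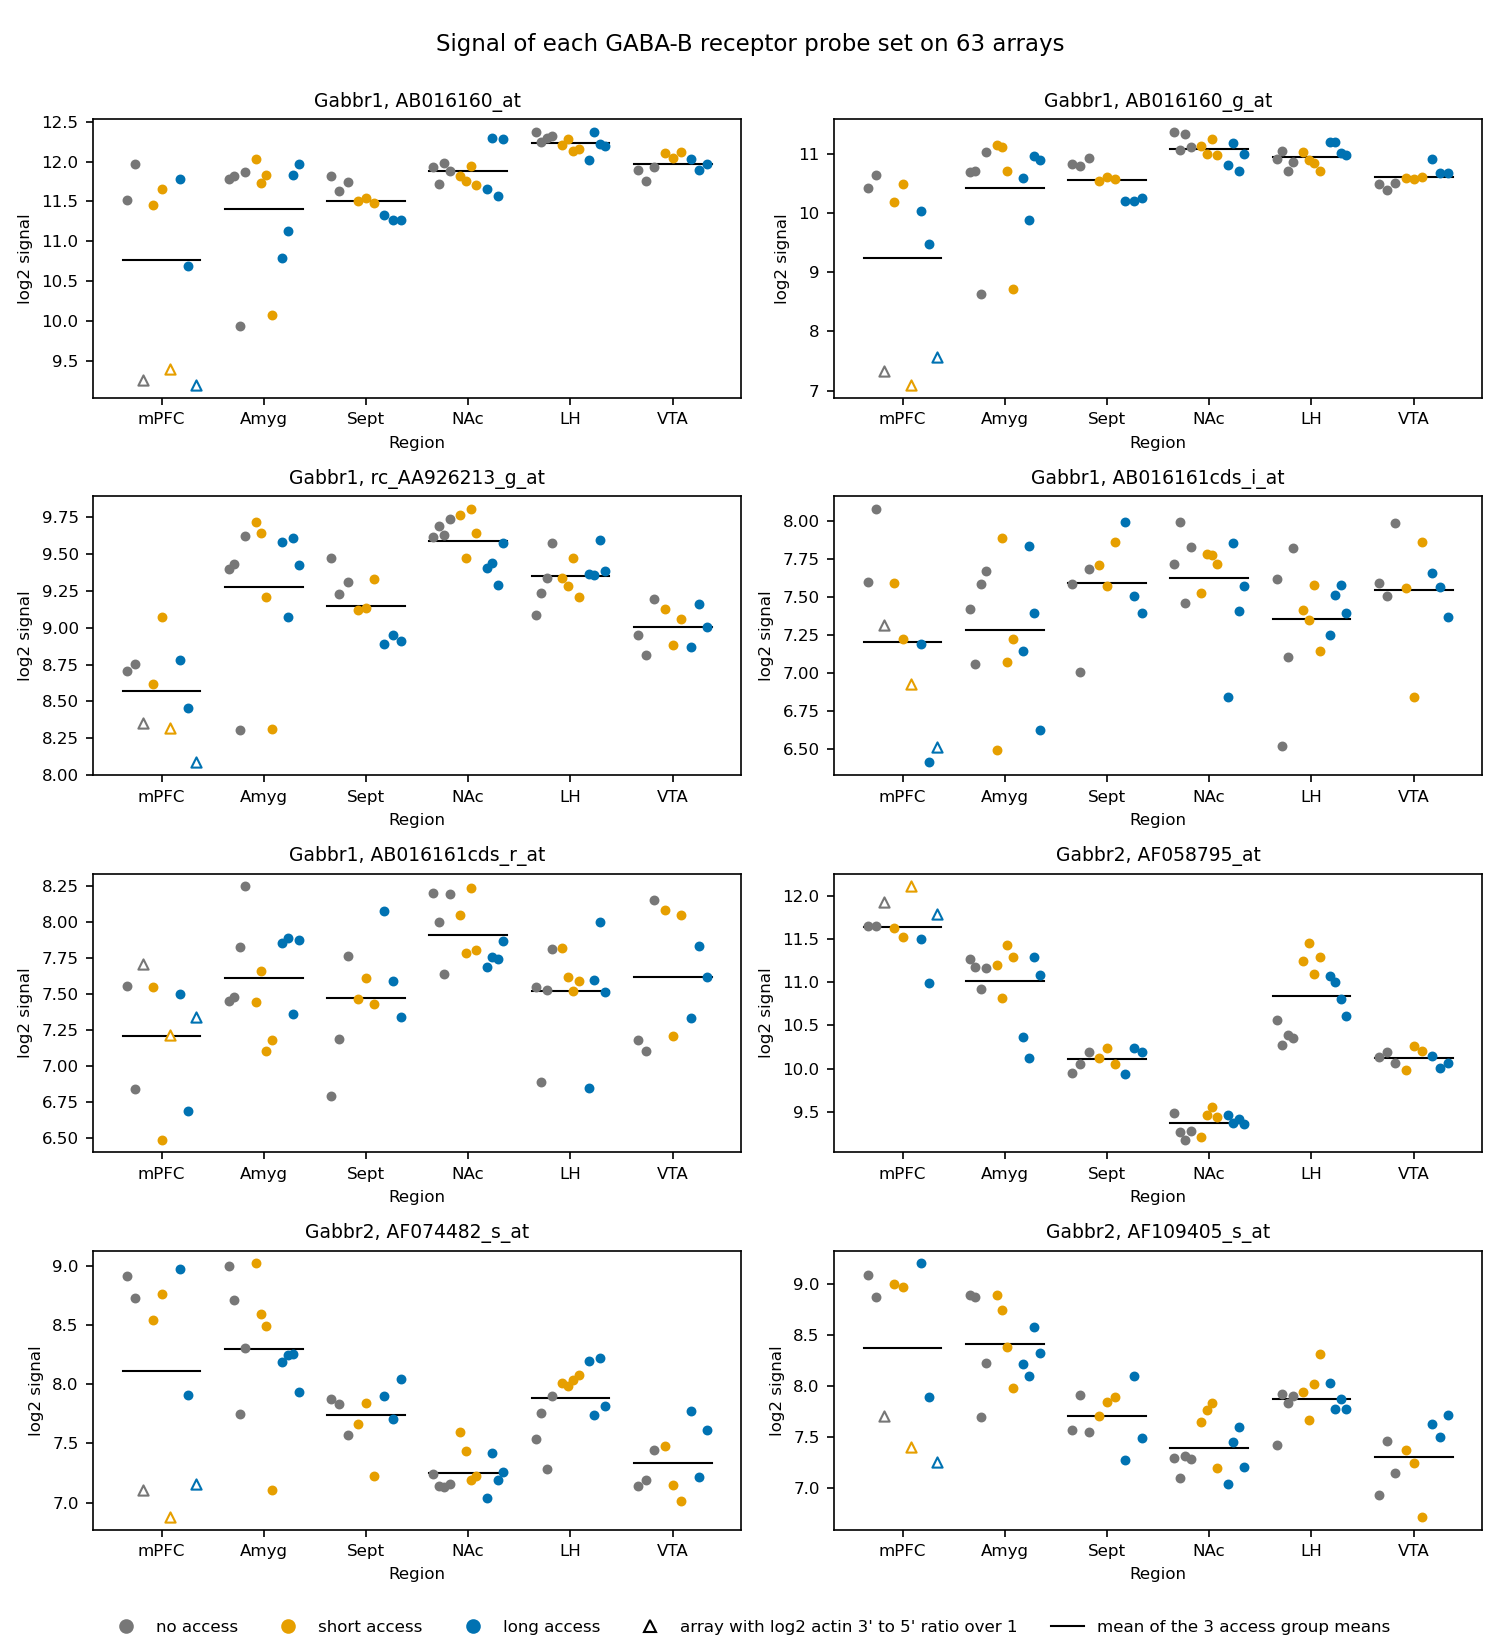
Log2 signal (vertical axis) of each of the 8 probe sets on each of the 63 arrays, by region (horizontal axis; mPFC, medial prefrontal cortex; Amyg, amygdala; Sept, septum; NAc, nucleus accumbens; LH, lateral hypothalamus; VTA, ventral tegmental area) and coloured by access group, with a bar at the mean of the 3 access group means. Open triangles are the 3 arrays with a log2 actin 3' to 5' ratio over 1. Gabbr2 AF058795_at runs from a mean of 11.64 in the medial prefrontal cortex to 9.37 in the nucleus accumbens, and Gabbr1 AB016160_g_at from 11.08 in the nucleus accumbens to 9.25 in the medial prefrontal cortex.

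Gabbr1 AB016160_g_at had its highest level in the nucleus accumbens, where the 12 arrays lay between 1670 and 2644 with a median of 2171. Its lowest mean was that of the medial prefrontal cortex, whose 9 arrays ran from 137 to 1598 with a median of 1045, below every array of the nucleus accumbens. On the log2 scale the means fell from 11.08 in the nucleus accumbens through 10.94 in the lateral hypothalamus, 10.60 in the ventral tegmental area, 10.55 in the septum and 10.42 in the amygdala to 9.25 in the medial prefrontal cortex. Only the last step exceeded the spread (limma adjusted p = 0.00198), and no other neighbours in that order passed. Without the 3 high-ratio arrays the medial prefrontal mean was 10.20, still the lowest but nearer to the amygdala. Against the mean of the other 5 regions, the nucleus accumbens was higher by 0.72 ± 0.23 (SE; adjusted p = 0.0054) and the medial prefrontal cortex lower, at -1.47 ± 0.26 (adjusted p = 2.2e-06). Without the 3 high-ratio arrays these became 0.53 ± 0.14 and -0.51 ± 0.19 (adjusted p = 9.6e-04 and 0.0155). With only the no access arrays the accumbens value was 0.84 ± 0.41 and did not pass (adjusted p = 0.101).

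The level of rc_AA926213_g_at followed a similar course, highest in the nucleus accumbens (625 to 896 over 12 arrays, median 788) and lowest in the medial prefrontal cortex (272 to 538 over 9 arrays, median 392). Those ranges did not overlap. It was higher in the nucleus accumbens than in the other 5 regions by 0.52 ± 0.09 (adjusted p = 1.9e-06). In the medial prefrontal cortex the difference was -0.70 ± 0.10 (adjusted p = 2.9e-08), and -0.54 ± 0.12 without the high-ratio arrays.

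AB016160_at disagreed with these sets about the top of the order. Its highest mean log2 signal was in the lateral hypothalamus, at 12.24, where the 12 arrays lay between 4157 and 5316. The ventral tegmental area (11.97), the nucleus accumbens (11.88), the septum (11.51) and the amygdala (11.40) followed, each within the spread of its neighbour. The medial prefrontal cortex was last at 10.77 (limma adjusted p = 0.042 against the amygdala). That place rested on the 3 high-ratio arrays. Without them its mean was 11.511, with the septum at 11.507 and the amygdala last at 11.399. The lateral hypothalamus was higher than the other 5 regions by 0.73 ± 0.19 (adjusted p = 9.2e-04), and by 0.76 ± 0.33 with only the no access arrays, which did not pass (adjusted p = 0.0708). For the medial prefrontal cortex the difference was -1.03 ± 0.21 (adjusted p = 3.2e-05), but without the 3 high-ratio arrays it was -0.29 ± 0.17 and no longer passed (adjusted p = 0.136), and with only the no access arrays it was -0.91 ± 0.37 (adjusted p = 0.051).

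The remaining Gabbr1 sets were dim and varied little between regions. AB016161cds_i_at had means from 7.21 in the medial prefrontal cortex to 7.62 in the nucleus accumbens, and 0 of 6 regions differed from the other 5 (1 at an unadjusted p under 0.05; limma). Without the 3 high-ratio arrays its lowest mean was that of the amygdala, at 7.28. AB016161cds_r_at was highest in the nucleus accumbens (200 to 301, median 228), which was 0.42 ± 0.11 above the other 5 regions (adjusted p = 0.0011). It was lowest in the medial prefrontal cortex, at -0.42 ± 0.13 (adjusted p = 0.0038), and at -0.52 ± 0.15 without the 3 high-ratio arrays (adjusted p = 0.0028). That call was lost without the 7 arrays of an actin ratio over 0.5 (-0.39; adjusted p = 0.0511) and with only the no access arrays (-0.22 ± 0.25; adjusted p = 0.499). No neighbours in its order of regions differed beyond their spread.

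Gabbr2 AF058795_at, one of the sets with no suffix, separated the regions most sharply among the members, with all 6 regions past the threshold against the other 5. In the medial prefrontal cortex its 9 arrays lay between 2037 and 4424 with a median of 3209. The 12 nucleus accumbens arrays lay between 579 and 754 with a median of 673, below every array of every other region. The order of mean log2 signal was medial prefrontal cortex (11.64), amygdala (11.01), lateral hypothalamus (10.85), ventral tegmental area (10.12), septum (10.11) and nucleus accumbens (9.37). The amygdala and the lateral hypothalamus did not differ beyond their spread (adjusted p = 0.122), nor did the ventral tegmental area and the septum (adjusted p = 0.947). The other 3 steps did, with adjusted p of 7.2e-07, 2.0e-08 and 9.3e-09. The medial prefrontal cortex was 2.55-fold above the other 5 regions (1.35 ± 0.08 in log2; adjusted p = 8.8e-21) and the nucleus accumbens 2.59-fold below them (-1.37 ± 0.07; adjusted p = 4.5e-23).

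Without the high-ratio arrays the medial prefrontal value of AF058795_at was 1.20 ± 0.09. The place of the lateral hypothalamus in its order depended on the access groups. There the mean over access groups was 0.39 ± 0.07 above the other 5 regions (adjusted p = 5.8e-06), but the no access arrays alone gave -0.081 (adjusted p = 0.452).

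The other Gabbr2 sets were also below the other regions in the nucleus accumbens, which was the lowest region for AF074482_s_at (7.25) but not for AF109405_s_at, whose mean was 7.39 there and 7.30 in the ventral tegmental area, within the spread. AF074482_s_at lay between 132 and 194 on the 12 nucleus accumbens arrays, -0.62 ± 0.15 from the other 5 regions (adjusted p = 2.3e-04), and AF109405_s_at between 131 and 227, at -0.54 ± 0.13 (adjusted p = 3.9e-04). Both were also lower in the ventral tegmental area, at -0.52 ± 0.17 and -0.65 ± 0.15; with only the no access arrays the first did not pass (-0.59 ± 0.27; adjusted p = 0.0791). Their highest means were in the amygdala, at 8.30 and 8.40, with the medial prefrontal cortex next at 8.11 and 8.37. Without the 3 high-ratio arrays that order turned, with medial prefrontal means of 8.64 and 8.83 above those of the amygdala. Leaving out those arrays raised the medial prefrontal excess of AF074482_s_at from 0.41 ± 0.17 to 0.94 ± 0.14. For AF109405_s_at the excess rose from 0.64 ± 0.15 to 1.10 ± 0.14. With all arrays in, the medial prefrontal excess of AF074482_s_at (adjusted p = 0.0272) was lost without any 1 of 5 arrays: replicate 1 or 2 of no or short access, or replicate 1 of long access (adjusted p up to 0.193), and with only the no access arrays (0.60 ± 0.27; adjusted p = 0.0754). Between pairs of regions, 60 of 120 member comparisons passed (66 without the 3 high-ratio arrays), against 58.3% of all probe sets.

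The probe sets of 1 gene could be set against each other by how their 18 group means of region and access ran together, a description in which groups share arrays' preparation and no p applies. Among the Gabbr2 sets Pearson's r was between 0.84 and 0.93. Among the Gabbr1 sets it reached 0.92 between AB016160_g_at and rc_AA926213_g_at and 0.90 between AB016160_g_at and AB016160_at, and was as low as 0.37 between AB016160_at and AB016161cds_i_at. Every Gabbr1 set ran against every Gabbr2 set, with r from -0.35 to -0.73. Without the 3 high-ratio arrays these ran from -0.26 to -0.68.

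The genes whose 18 group means were most like those of Gabbr2 AF058795_at were Tubb5, a beta-tubulin (r = 0.91 and 0.89 for its separate probe sets), Chrm3, a muscarinic acetylcholine receptor (0.90), Sncb, which encodes beta-synuclein (0.87), and Camk2g, a calmodulin-dependent kinase subunit (0.85). For AF074482_s_at the nearest were Nptxr, the neuronal pentraxin receptor (0.89), and Pnck, a kinase (0.89 and 0.88), and for AF109405_s_at Nptxr (0.91 and 0.86) and Chrm3 (0.89). The nearest to AB016160_at were Rpsa, a ribosomal protein gene (0.89), and the myelin genes Mbp (0.87), Mag (0.87) and Cnp (0.86), with the adenosine receptor gene Adora1 (0.86). AB016160_g_at was nearest to Insr, the insulin receptor (0.90), Ncam1, an adhesion molecule (0.87), and Abat, the GABA transaminase (0.86), and rc_AA926213_g_at to Map2, a dendritic microtubule protein (0.91), and Map1a (0.86). AB016161cds_r_at was nearest to Drd2, the D2 dopamine receptor (0.76). AB016161cds_i_at had no gene above 0.68, the r with Tgfbr3. Leaving out the high-ratio arrays lowered the top r of AB016160_at to 0.72 and of AB016160_g_at to 0.57, and that of AF058795_at to 0.88.

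Within regions the study asks whether the length of daily access changed the receptor's RNA. Of 144 comparisons of a member between access groups, 6 passed an adjusted p of 0.05 (limma within each region, Benjamini-Hochberg adjustment over all probe sets tested), against 4.09% of all comparisons on the array. All 6 came from the lateral hypothalamus and the septum: 3 of Gabbr2 AF058795_at in the former, and 3 of Gabbr1 sets in the latter. At an unadjusted p under 0.05 there were 22. The long and short access comparisons share the same no access arrays.

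**Figure D3:**
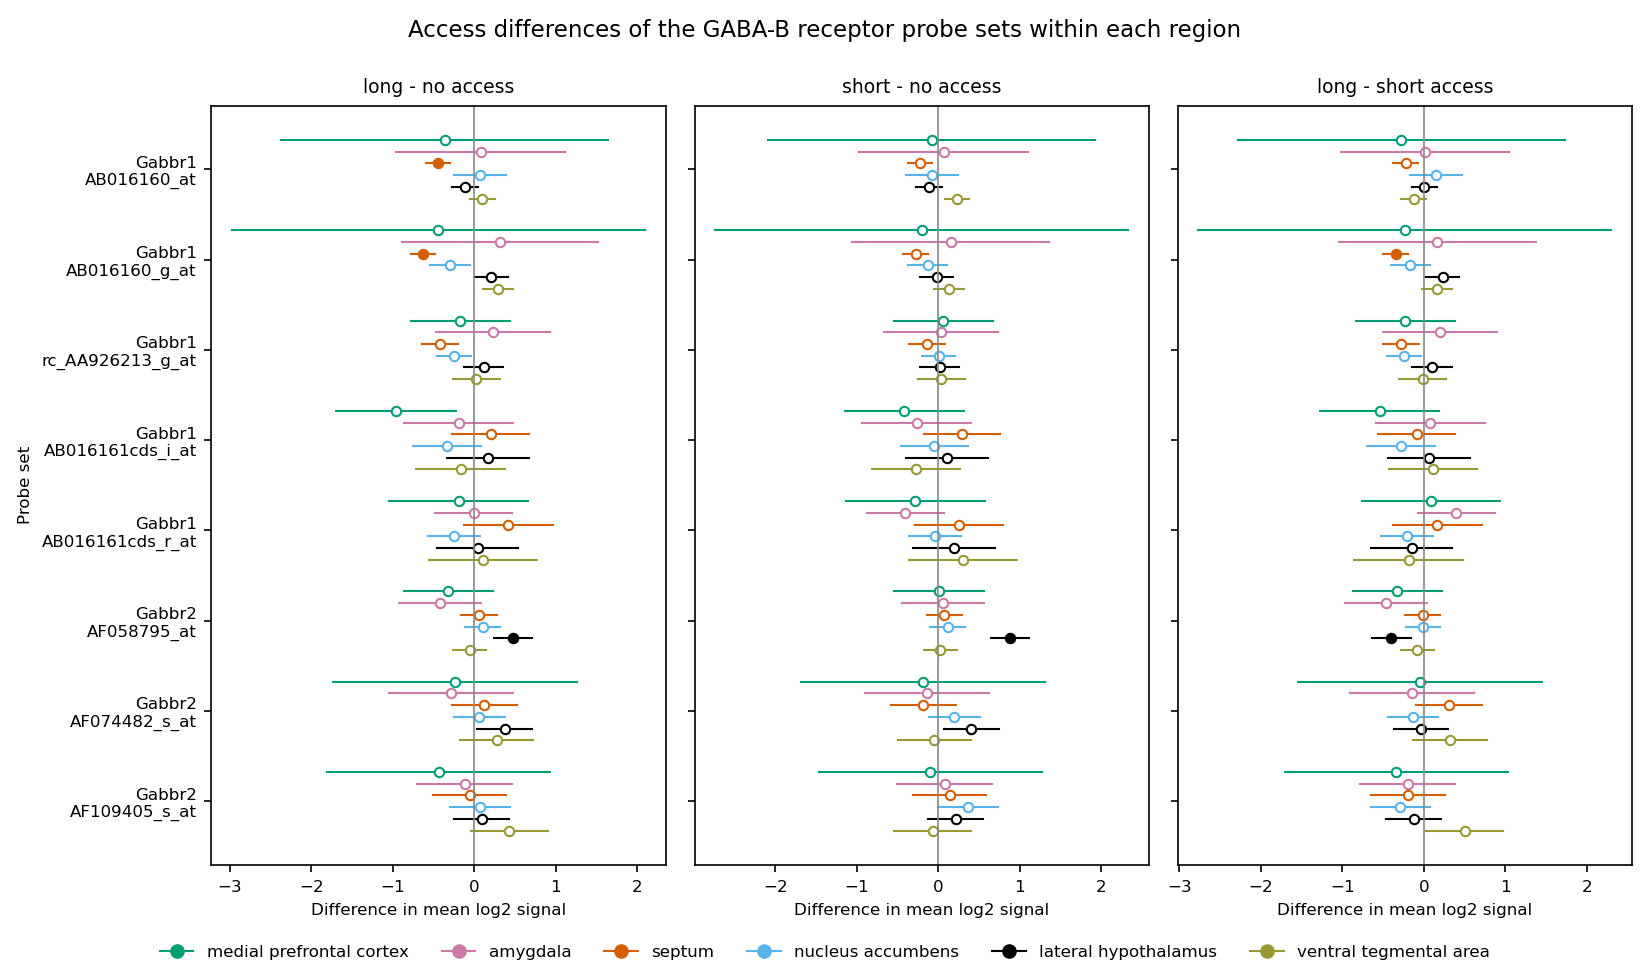
Difference in mean log2 signal between access groups (horizontal axis) with its 95% confidence interval, for each of the 8 probe sets (vertical axis) in each of the 6 regions (colours), for long minus no, short minus no and long minus short access. Filled points passed an adjusted p of 0.05. The 6 filled points are Gabbr2 AF058795_at in the lateral hypothalamus in each panel, and Gabbr1 AB016160_at and AB016160_g_at in the septum.

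In the lateral hypothalamus Gabbr2 AF058795_at was higher in rats that had taken cocaine, and most so with short access. Its signal was 1510, 1233, 1338 and 1311 on the no access arrays. With short access it was 2433, 2811, 2182 and 2498, and with long access 2155, 2049, 1793 and 1560. No 2 of the 3 groups overlapped, in the order no, long and short access. The mean log2 signal was 10.39 ± 0.12 (SD, n = 4) with no access, 11.27 ± 0.15 with short and 10.87 ± 0.21 with long access. Short access was 1.84-fold above no access (0.88 ± 0.11 in log2, SE; limma adjusted p = 5.4e-05) and long access 1.39-fold above it (0.48 ± 0.11; adjusted p = 0.0046). Long access was 1.32-fold below short access (-0.40 ± 0.11; adjusted p = 0.0398).

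It was the only member of 8 to pass in each of these comparisons, and the background there was high: 22.4% of all probe sets passed for short against no access, 29.7% for long against no access and 8.91% for long against short access. The antisense and spike-in controls set the same no access arrays apart, as given above. With each array's spike-in level as a covariate the rises were 1.17 ± 0.13 for short access and 0.93 ± 0.17 for long access (adjusted p = 1.9e-04 and 0.0057), while long against short access was -0.25 ± 0.10 and did not pass (adjusted p = 0.18). The last comparison was also lost when any of 6 of the 12 arrays was left out: no access replicate 3, short access replicates 1, 2 and 4, or long access replicates 3 and 4, with adjusted p up to 0.123. It was lost as well after quantile normalization, without the filter on low signals, with no intensity trend, with the actin ratio as a covariate, with all arrays in 1 fit and with adjustment over 18 contrasts (adjusted p from 0.0674 to 0.219).

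The other Gabbr2 sets gave smaller values in the lateral hypothalamus. AF074482_s_at read 185, 217, 156 and 239 with no access, 258, 254, 262 and 270 with short access, and 293, 214, 299 and 225 with long access. The short access arrays lay above every no access array, and the long access arrays overlapped them. The differences were 0.41 ± 0.16 for short access (adjusted p = 0.077) and 0.37 ± 0.16 for long access (adjusted p = 0.088), and neither passed. Both did after quantile normalization (adjusted p = 0.0188 and 0.0456) and without no access replicate 4 (0.0411 and 0.0435). AF109405_s_at overlapped in every comparison, with 0.22 ± 0.16 for short and 0.09 ± 0.16 for long access (adjusted p = 0.34 and 0.72).

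**Figure D4:**
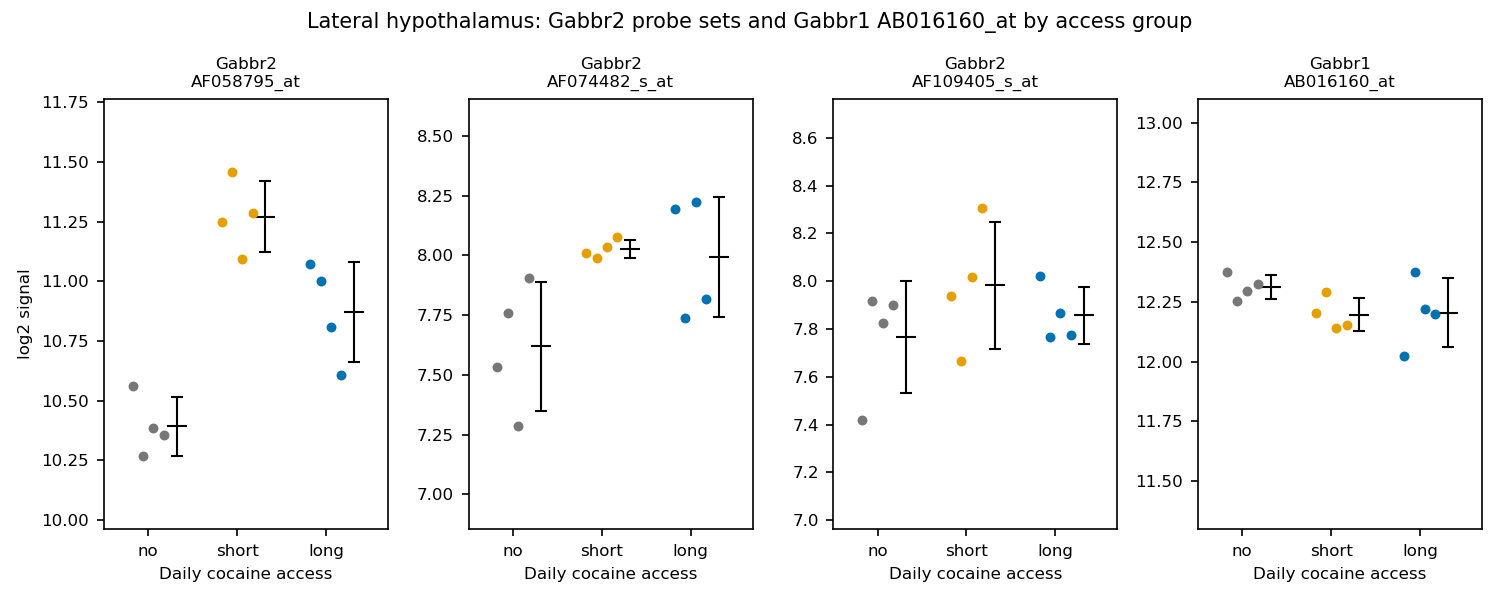
Log2 signal (vertical axes, each spanning the same range of log2 units) of the 3 Gabbr2 probe sets and of Gabbr1 AB016160_at on the 12 arrays of the lateral hypothalamus, by daily cocaine access (horizontal axis); points are arrays, and the bars are the mean ± SD of each group of 4. AF058795_at separates all 3 groups, with means of 10.39, 11.27 and 10.87 for no, short and long access, and AB016160_at has its groups within 12.31 to 12.20.

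The ligand-binding subunit did not pass there. Gabbr1 AB016160_at was 5314, 4879, 5022 and 5127 with no access, 4721, 5006, 4510 and 4558 with short and 4157, 5316, 4774 and 4703 with long access, and the groups overlapped. Its long minus no difference was -0.11 ± 0.07 (adjusted p = 0.31). AB016160_g_at differed by 0.21 ± 0.09 in the same comparison (adjusted p = 0.11), and the other 3 Gabbr1 sets by 0.04 to 0.17, none past the threshold. On each array the log2 signal of AB016160_at less that of AF058795_at fell from 1.92 ± 0.08 (SD, n = 4) with no access to 0.93 ± 0.10 with short and 1.33 ± 0.27 with long access, and neither access group overlapped the no access group. The exact two-sided permutation p of both differences was 0.0286, but over the 252 such tests of pairs of members computed the lowest adjusted p was 0.66.

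The change of AF058795_at in the lateral hypothalamus also differed from that in the rest of the brain regions sampled. In a fit of all arrays, the short minus no difference exceeded the mean difference of the other 5 regions by 0.82 ± 0.18 (adjusted p = 0.0022) and the long minus no difference by 0.60 ± 0.18 (adjusted p = 0.0176). It was the 1 of 8 members to pass in each, where 6.88% and 12.8% of all probe sets passed, and these were 2 of 24 over the 3 contrasts, against 6.6%. The long access value was lost without long access replicate 1 or 2 (adjusted p up to 0.057). The long minus short difference did not differ from that of the other regions for any member (0.117% of all probe sets passed).

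Genes through which the receptor acts were sparse on the array: 12 of a list of 57 G protein, channel, cyclase, kinase and partner protein genes were present, and the potassium channel genes Kcnj6 and Kcnj9 lay at the lower signal limit in the lateral hypothalamus. Of 7 tested there by their brightest probe set, 0 rose and 1 fell with long access, with a median difference of -0.01 against -0.03 over all probe sets. The 1 that fell was Gnb1, a G protein beta subunit, all 5 of whose probe sets were lower, with differences from -0.42 to -1.25 (adjusted p from 0.0424 to 8.7e-07), and the same 5 were lower with short access. Gnao1, the alpha subunit of Go, rose on M17526_at (0.74 ± 0.10, adjusted p = 0.000113) and gave 0.03 ± 0.09 on its brighter set M17526_g_at. Cacna1b, the N-type calcium channel, likewise rose on M92905_s_at (0.51 ± 0.17, adjusted p = 0.037) and gave 0.03 ± 0.15 on AF055477_at. Of 4 genes tested for GABA synthesis and transport, 1 rose and 0 fell: Slc32a1, which loads GABA into vesicles, on both of its probe sets (0.69 ± 0.07 and 0.93 ± 0.23; adjusted p = 5.7e-06 and 0.0071). Gad1, which makes GABA, gave 0.24 ± 0.11 (adjusted p = 0.11).

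Marker genes of other cells moved in the lateral hypothalamus too. The summed signal of 7 astrocyte markers was 66841 to 75267 on the no access arrays, above all short access arrays (53236 to 65487) and all long access arrays (47518 to 59545), with 3 of 7 markers lower and 1 higher with long access. The 8 neuronal markers summed to 28522 to 30604 with no access, 29905 to 30993 with short and 28814 to 30873 with long access, which overlapped, with 2 of 8 higher and 2 lower. The summed signal of 6 oligodendrocyte markers was lower with long access (40787 to 46885) than with no access (48097 to 54446), with 2 of 6 higher and 3 lower. No marker of these 3 lists was at the lower signal limit. The part of cell composition in the Gabbr2 difference was not tested.

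In the septum it was Gabbr1 that differed, on 2 of 5 probe sets with long access, and in the downward direction. AB016160_g_at read 1820, 1769 and 1941 with no access, 1479, 1549 and 1529 with short access, and 1180, 1179 and 1222 with long access. No 2 groups overlapped, and the order was no, short and long access. AB016160_at read 3601, 3164 and 3431, then 2906, 2985 and 2855, then 2567, 2461 and 2455 in the same order of groups, again without overlap. Against no access, long access was lower by 1.54-fold on AB016160_g_at (-0.63 ± 0.07; limma adjusted p = 2.2e-04) and 1.36-fold on AB016160_at (-0.44 ± 0.07; adjusted p = 0.0023). These were 2 of 8 members, where 2.31% of all probe sets passed. The spike-in controls also set the long access arrays of the septum apart, at a mean log2 signal of 11.13 ± 0.06 (SD, n = 3). They were 10.76 ± 0.25 with no and 10.83 ± 0.13 with short access, and neither group overlapped long access. For each comparison the exact two-sided permutation p was 0.10, the smallest that 3 arrays against 3 allow (adjusted p = 0.30).

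Short access lay between. AB016160_g_at was -0.28 ± 0.07 from no access (adjusted p = 0.062) and long access was -0.35 ± 0.07 from short access (adjusted p = 0.027), the 1 of 8 members to pass where 2.04% of all probe sets did. That step was lost when any array of the short or long access group was left out (adjusted p up to 0.111), after quantile normalization, with no intensity trend, with only the groups compared in the fit, with the spike-in level or the actin ratio as a covariate, and with all arrays in 1 fit (adjusted p from 0.0554 to 1.0). For AB016160_at the steps were -0.22 ± 0.07 and -0.23 ± 0.07 (adjusted p = 0.14 for each). For short against no access 0 of 8 members passed (limma; 2 at an unadjusted p under 0.05). Of all probe sets 1.9% passed, and 107 of 736 had an unadjusted p under 0.05. AB016160_g_at did pass with no filter (limma adjusted p = 0.0248) or with array weights (0.0247).

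The remaining bright Gabbr1 set had the same sign and just missed the threshold. It is rc_AA926213_g_at, which read 712, 599 and 635 with no access, 557, 562 and 645 with short access, and 475, 494 and 480 with long access. The long access arrays lay below all the others, and the no and short access arrays overlapped. The long minus no difference was -0.42 ± 0.10 (adjusted p = 0.0502), and it passed without short access replicate 3 (0.0401) and after quantile normalization (0.0221).

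The 2 dim Gabbr1 sets did not follow. AB016161cds_i_at had 192, 128 and 206 with no access against 255, 182 and 168 with long access, a difference of 0.21 ± 0.22 (adjusted p = 0.65). AB016161cds_r_at had 111, 146 and 217 against 270, 193 and 162, a difference of 0.42 ± 0.25 (adjusted p = 0.38). The groups of each overlapped. The log2 difference between AB016160_g_at and AB016161cds_r_at on the same array did not overlap between long and no access, at 2.55 ± 0.40 and 3.60 ± 0.44 (exact two-sided permutation test, p = 0.10, the smallest that 3 arrays against 3 allow; adjusted p = 0.66). No Gabbr2 set passed in the septum, where AF058795_at was 985, 1062 and 1172 with no access and 981, 1209 and 1171 with long access (0.06 ± 0.10; adjusted p = 0.78).

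**Figure D5:**
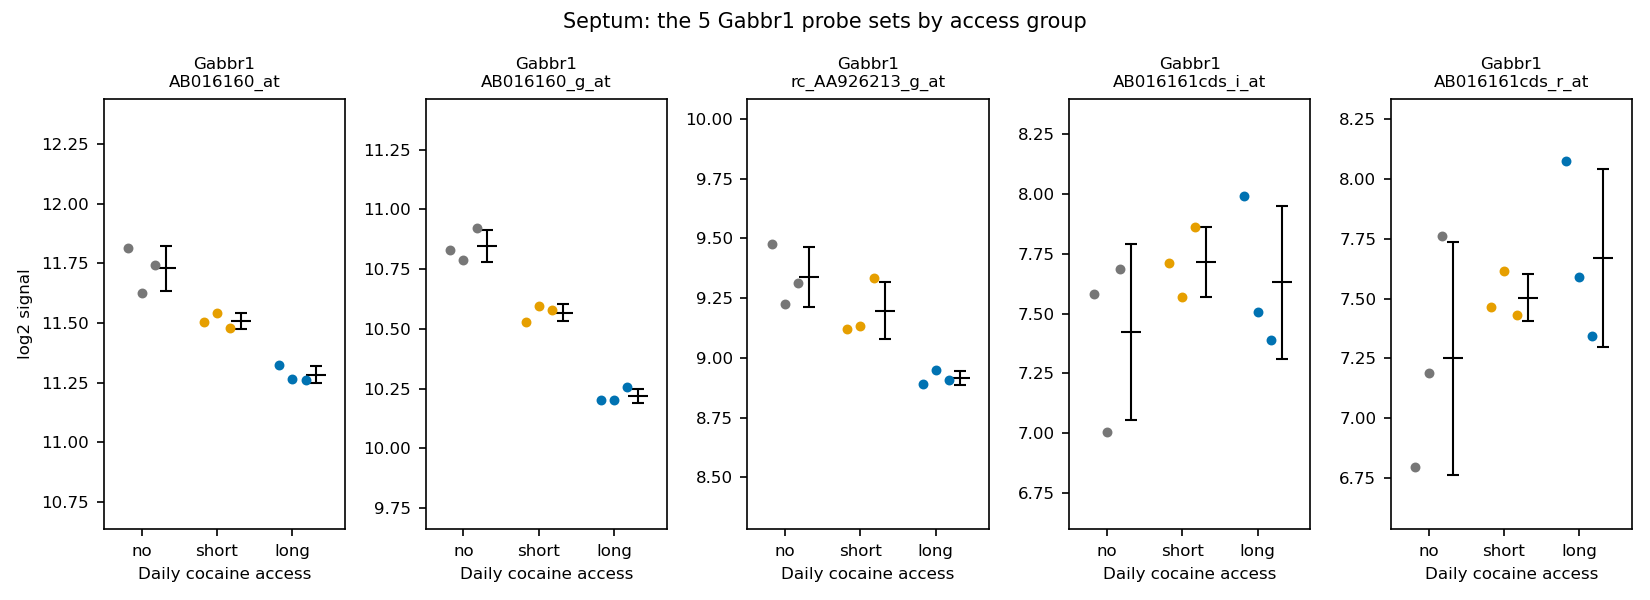
Log2 signal (vertical axes, each spanning the same range of log2 units) of the 5 Gabbr1 probe sets on the 9 arrays of the septum, by daily cocaine access (horizontal axis); points are arrays, and the bars are the mean ± SD of each group of 3. The first and second probe sets step down from no to short to long access (means of 11.73, 11.51 and 11.28, and of 10.85, 10.57 and 10.22), and AB016161cds_i_at and AB016161cds_r_at overlap between groups.

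The septal differences were small against the spread of these probe sets in other regions. In 1 fit of all 63 arrays, which takes in the high-ratio arrays, the long minus no values of AB016160_g_at and AB016160_at were -0.63 and -0.44 and did not pass (adjusted p = 0.992 and 0.996). A test that the septum differed from the other 5 regions, added after its values were seen, gave -0.64 ± 0.64 and -0.40 ± 0.52 (adjusted p = 0.97 and 0.99). In that test 0 of 8 members passed (limma; 0 at an unadjusted p under 0.05), as did 0.0% of all probe sets. Without the 7 arrays of an actin ratio over 0.5 the values were -0.52 ± 0.17 and -0.39 ± 0.19 (adjusted p = 0.22 and 0.47).

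Of the signalling list, 1 of 8 genes tested in the septum rose with long access and 0 fell: Gnb1, on U88324_g_at (0.46 ± 0.08; adjusted p = 0.0076), while its other 4 sets ran from -0.17 to 0.28 and did not pass. Abat, which breaks down GABA, fell on its 1 probe set, by means of -0.46 ± 0.09 with long and -0.55 ± 0.09 with short access (adjusted p = 0.0205 and 0.0106), the 1 of 5 GABA synthesis and transport genes to do so. Markers of other cells also separated the same septal groups. The summed signal of 7 astrocyte markers was 55266 to 58873 with long access and 48336 to 52247 with no access. By their brightest probe sets 3 of 7 rose: Kcnj10, a potassium channel (0.76 ± 0.10), Vim and S100b. The other Kcnj10 set gave -0.16 ± 0.14 and the other S100b set 0.39 ± 0.27, and neither passed (limma adjusted p = 0.55 and 0.44). The 4 choroid plexus markers summed to 10744 to 10890 with long access and 12280 to 13247 with no access, and 1 of 4, Igfbp2, fell by its brightest probe set (-0.33 ± 0.07). The 8 neuronal markers overlapped between those groups (27427 to 29480 and 27795 to 29867), and 0 of 8 passed (limma). The part of cell composition in the Gabbr1 difference was not tested.

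In the remaining regions 0 of 8 members passed in each access comparison (limma; at an unadjusted p under 0.05, 3 comparisons each in the nucleus accumbens and ventral tegmental area, 1 in the medial prefrontal cortex and 0 in the amygdala). Few probe sets passed there in all: 2.91% for long against no, 0.831% for short against no and 2.63% for long against short access in the ventral tegmental area, 0.137% for long against no access in the amygdala, and 0.0% in the other 8 comparisons. The probe sets at an unadjusted p under 0.05 were 71 to 119 of 738 in the nucleus accumbens and 64 to 107 of 722 in the ventral tegmental area. They were 2 to 4 of 680 in the medial prefrontal cortex and 30 to 44 of 732 in the amygdala. In the nucleus accumbens AB016160_g_at was 2644, 2142, 2575 and 2200 with no access and 1789, 2321, 1670 and 2045 with long access, which overlapped (-0.29 ± 0.11; adjusted p = 0.22). AB016160_at on the same arrays gave 0.07 ± 0.15, with long access arrays both the lowest and the highest of the region (3040 and 5045). The log2 difference between these sets of 1 sequence record was 1.03 ± 0.21 (SD, n = 4) with long access. It was 0.66 ± 0.09 with no access and 0.72 ± 0.04 with short access. The long access arrays lay above both other groups (exact two-sided permutation test, p = 0.0286 for each, adjusted p = 0.66). The actin ratio also separated the long from the no access arrays of this region, and its part in this difference was not tested. In the ventral tegmental area AB016160_g_at was 1427, 1335 and 1451 with no access and 1925, 1624 and 1633 with long access, without overlap, a difference of 0.30 ± 0.08 that did not pass (limma adjusted p = 0.082). The antisense controls separated the same groups, at 8.04 ± 0.19 (mean log2 signal, SD, n = 3) with long and 7.10 ± 0.03 with no access. So did the spike-in controls, at 12.32 ± 0.11 and 11.55 ± 0.14. For each the exact two-sided permutation p was 0.10, the smallest that 3 arrays against 3 allow (adjusted p = 0.30).

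In the amygdala Gabbr2 AF058795_at read 2469, 2312, 1941 and 2291 with no access and 1317, 1118, 2504 and 2171 with long access. Long access replicates 1 and 2 were the lowest of the region, and the difference of -0.42 ± 0.23 did not pass (adjusted p = 0.89). In the medial prefrontal cortex the high-ratio arrays left wide intervals: for AB016160_g_at long minus no access had a 95% interval from -2.97 to 2.10. The largest difference there was that of AB016161cds_i_at, at -0.96 ± 0.33 (adjusted p = 0.996; unadjusted p = 0.0159).

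Averaged over the 6 regions, no member passed between access groups: 0 of 24 comparisons passed (limma; 2 at an unadjusted p under 0.05), against 0.738% of all probe sets. Both were of Gabbr2 AF058795_at, with 0.19 ± 0.07 for short minus no access (adjusted p = 0.216) and -0.22 ± 0.07 for long minus short access (adjusted p = 0.165). Over all probe sets, 87 and 96 of 858 had an unadjusted p under 0.05 in these comparisons.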

How the data were processed

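Each deposited value is the intensity of 1 probe set on 1 array, not logged; the submitters' processing notes name MAS5. The version, scaling target and detection calls are not given in the sources used here. The table held 1322 probe sets, of which 59 controls were left out of all tests. Of the others, 1137 had 1 gene symbol, 8 several and 118 none in the platform annotation. The 8 members matched RefSeq by Entrez identifier.

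Arrays were brought to the same 2% trimmed mean (500) of their non-control probe sets, signals under 32 were raised to 32, and log2 was taken. No array's values were identical to another's. Probe sets with a mean signal of at least 100 over a region's arrays (or, in fits of all arrays, in at least 1 region) were tested. limma 3.58.1 in R 4.3.3 (lmFit, eBayes with an intensity trend) fitted the 3 access groups of each region, and 18 groups of region and access for region comparisons, means over regions and differences between regions. Benjamini-Hochberg adjustment ran over all probe sets of a contrast, with a threshold of 0.05. The fit was tested on simulated data. A fold change is the antilog of a difference of mean log2 signals. Pairs of members and controls were compared by exact permutation tests (scipy 1.17.1).

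The members, the gene lists and the markers were chosen with earlier results of these data known. The genes named beside the members came from the 5 probe sets of highest correlation with each, and from up to 4 genes past the threshold of each list in the lateral hypothalamus and septum. Not all of these are named. The cell type markers of the lateral hypothalamus in particular are given only as counts and sums. Some members of a list were named for contrast after their values were seen. The marker lists of microglia (2 tested) and vessels (1 tested) had 2 and 1 genes lower with long access in the lateral hypothalamus and 0 changed in the septum. Choroid plexus markers had 1 of 4 higher in the lateral hypothalamus, and 0 of 6 oligodendrocyte markers passed in the septum. These counts take each gene by its brightest probe set. On a dimmer set, M22357_at, the oligodendrocyte marker Mag was lower in the septum with long access (-0.68 ± 0.09, limma adjusted p = 0.00094). Its brightest set gave -0.15 ± 0.09 there (limma adjusted p = 0.38). Some choroid plexus markers fell on dimmer sets with long access. In the lateral hypothalamus Enpp2 D28560_g_at gave -0.47 ± 0.08 and Igfbp2 J04486_at -1.25 ± 0.42 (limma adjusted p = 5.3e-04 and 0.037). Their brightest sets gave 0.06 ± 0.07 and -0.07 ± 0.36 and did not pass. In the septum Igf2 E00988mRNA_s_at gave -1.14 ± 0.17 and its brightest set -0.18 ± 0.07 (limma adjusted p = 0.0017 and 0.19). Alternatives covered scaling, floor, filter, variance prior, array weights, cross-hybridising probe sets (565 carry such a suffix), replicate block, samples in the fit, spike-in level and each array left out in turn. Those on the actin ratio and the septal comparison with other regions were chosen after seeing the data.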

Additional observations from a re-analysis of the deposited data

Results flagged for a closer look

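A single array stood far from the others of its group in 7 of 72 groups of 4 arrays examined. Chance gives about 1 in 20 for independent groups, but these are 8 probe sets read on the same arrays. The share over all probe sets was not computed, so the count is not read as an excess of these genes. Of the 7, 3 were the same array, amygdala no access replicate 3. Its log2 signals were 9.93 for Gabbr1 AB016160_at (next 11.78), 8.64 for AB016160_g_at (next 10.69) and 8.30 for rc_AA926213_g_at (next 9.40). Amygdala short access replicate 4 had 10.07 for AB016160_at (next 11.73). Both arrays had an actin 3' to 5' log2 ratio over 0.5, whose part was not tested. The others were amygdala long access replicate 3 for AB016161cds_r_at (7.36, next 7.86), lateral hypothalamus long access replicate 3 for rc_AA926213_g_at (9.60, next 9.38) and nucleus accumbens no access replicate 2 for Gabbr2 AF109405_s_at (7.10, next 7.28).

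The access difference of Gabbr2 AF058795_at in the lateral hypothalamus departed from the mean of the other 5 regions by a test of that difference, by 0.60 for long against no access and by 0.82 for short against no access on the log2 scale (limma adjusted p = 0.0176 and 0.0022).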

How the results depend on the processing

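The 6 member comparisons called between access groups within regions became 10 with the replicate number as a block (replicate block) and 2 with all arrays in 1 fit. The 4 added under the block were rc_AA926213_g_at long against no and AB016160_g_at short against no access in the septum (adjusted p = 0.0497 and 0.0437), and, for the ventral tegmental area and lateral hypothalamus, AB016160_g_at with long against no access (0.0475 and 0.0420). Same-numbered arrays are not said to share an animal, no region had every such pair correlated above 0.1, and the numbers were not taken as a pairing. Their mean correlation was still above that of other pairs in each region, from 0.02 against -0.01 in the nucleus accumbens to 0.49 against -0.22 in the medial prefrontal cortex. The block raised calls over all probe sets from 438 to 543 in the lateral hypothalamus. Calls rose from 46 to 71 in the septum and from 46 to 90 in the ventral tegmental area, and fell from 1 to 0 in the amygdala. As a random replicate block over all arrays (correlation 0.0206) the number gave 24 calls against the other 5 regions, as without it, and 62 between pairs of regions against 60.

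Region comparisons fell from 24 to 8 without cross-hybridising probe sets, which leaves 2 members, and to 15 with only the no access arrays, where 9 calls were lost: all 4 of the lateral hypothalamus, AB016160_at, AB016161cds_r_at and AF074482_s_at in the medial prefrontal cortex, AB016160_g_at in the nucleus accumbens and AF074482_s_at in the ventral tegmental area. Region pairs fell from 60 to 21 and 31 in the same settings. With only the no access arrays, Gabbr2 AF058795_at in the lateral hypothalamus turned from 0.39 to -0.081. Leaving out each array in turn gave 5 to 8 calls within regions, 23 to 26 against the other 5 regions, 55 to 64 between pairs, 0 to 0 over the mean of 6 regions and 1 to 2 for the lateral hypothalamic difference. The differences of AF109405_s_at (long minus no, -0.024 to 0.14) and AF074482_s_at (long minus short, -0.11 to 0.051) in the lateral hypothalamus changed sign in such runs. Causes of these changes were not tested beyond the fewer probe sets or arrays in the fit. Array number and the signal of the dim sets over background limit the precision.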
